A study of Mus musculus with 6 samples.

Results

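Peaks of Flag-tagged OTUD3 were counted at 44 mouse genes that carry glucose from uptake through glycolysis, glycogen and pyruvate entry into the tricarboxylic acid (TCA) cycle. OTUD3 is a deubiquitinase, an enzyme that takes ubiquitin off other proteins. The genes were chosen by name for their place in the pathway, and all 44 were found among 21887 protein-coding nuclear genes of the RefSeq table of build GRCm38.p6, which mm10 also names. They comprised 19 genes of mitochondrial steps, 22 of cytosolic steps, 2 glucose transporters and 1 transcription factor. A gene was counted for a library when the summit of at least 1 peak, the position of highest enrichment, lay inside it or within 5 kb of it. Summits within 1 kb of either gene end were also kept apart.

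The material was epididymal adipose tissue of mice that had received AAV2-Otud3-Flag, an adeno-associated virus carrying tagged Otud3, by injection into the peritoneum, and the tissue was taken at week 4. Chromatin immunoprecipitation sequencing (ChIP-seq) used an antibody against Flag in 3 libraries, numbered 1, 3 and 4, against 3 input libraries with the same numbers, whose values were not used here. Every animal carried the virus. The strain, the age, the sex and the promoter driving the transgene are not given in the sources used here. The number of animals behind each library is not given there either, so the spread between libraries may be technical. The labels call the source an adipocyte, while the protocol names whole fat tissue, which also holds vascular, immune and precursor cells, and a peak list cannot show which cells a peak came from.

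Glycolysis splits glucose into pyruvate in the cytosol. Pyruvate then enters mitochondria, where the pyruvate dehydrogenase complex makes acetyl-CoA of it and pyruvate carboxylase makes oxaloacetate, and the TCA cycle oxidises acetyl units to supply electrons to the respiratory chain. In fat cells the pathway also provides glycerol phosphate and citrate for making triglyceride, and insulin drives its first step by moving the transporter encoded by Slc2a4 to the cell surface.

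Peak lists held 11871, 6531 and 13496 distinct intervals in replicates 1, 3 and 4, with 40, 26 and 67 at a q below 0.05. Read totals are not in the lists, and depth was read from the lowest background per position, 0.407, 1.17 and 0.839 fragments in the same order. The gene of the transgene, Otud3, had 0 summits in every list. Of the 6 adipocyte marker genes Adipoq, Plin1, Lep, Fabp4, Cidec and Lipe, 1, 1 and 2 had a summit in replicates 1, 3 and 4. The same counts were 1, 1 and 1 of 3 macrophage markers, 2, 0 and 0 of 2 endothelial markers and 1, 1 and 1 of 2 preadipocyte markers. Over all protein-coding genes the shares were 25.2%, 15.8% and 23.8%. The marker sets are small and were not matched for gene length, so these counts do not tell which cells the peaks came from.

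Where peaks lay nearest to transcription starts, the sequence of the start is shown first. Of the 44 genes, 5 had a summit within 1 kb of a gene end, namely Gapdh, Pdk2 and Suclg1 in replicate 1 and Sdha and Sucla2 in replicate 3. For 4 of them that end was the side where transcription begins, and the RefSeq promoter windows of these 4 (GRCm38.p6, 250 bases before to 50 after a listed start, in the direction of transcription) are printed here. At Gapdh the peak covered the listed start itself, and capitals mark the 130 bases of the window under the peak. At the other 3 the peak began 40, 518 and 85 bases beyond the window (Pdk2, Sdha and Sucla2), and capitals mark matches to the motifs given further on, which were found in Sucla2 alone of these 3.
Gapdh, chr6:125165724-125166023, minus strand: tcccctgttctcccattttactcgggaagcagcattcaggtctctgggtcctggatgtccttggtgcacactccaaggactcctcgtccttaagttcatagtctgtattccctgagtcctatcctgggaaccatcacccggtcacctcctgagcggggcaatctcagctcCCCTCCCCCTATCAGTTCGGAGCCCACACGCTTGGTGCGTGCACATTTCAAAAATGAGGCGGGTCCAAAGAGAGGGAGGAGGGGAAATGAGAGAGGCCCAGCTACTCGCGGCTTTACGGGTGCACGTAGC
Pdk2, chr11:95040826-95041125, minus strand: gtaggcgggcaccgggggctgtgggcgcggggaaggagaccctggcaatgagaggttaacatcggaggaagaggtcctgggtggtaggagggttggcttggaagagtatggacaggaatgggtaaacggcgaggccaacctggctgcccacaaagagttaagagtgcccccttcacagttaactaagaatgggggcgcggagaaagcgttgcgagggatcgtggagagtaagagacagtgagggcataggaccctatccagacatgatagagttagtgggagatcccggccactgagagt
Sucla2, chr14:73552536-73552835, plus strand: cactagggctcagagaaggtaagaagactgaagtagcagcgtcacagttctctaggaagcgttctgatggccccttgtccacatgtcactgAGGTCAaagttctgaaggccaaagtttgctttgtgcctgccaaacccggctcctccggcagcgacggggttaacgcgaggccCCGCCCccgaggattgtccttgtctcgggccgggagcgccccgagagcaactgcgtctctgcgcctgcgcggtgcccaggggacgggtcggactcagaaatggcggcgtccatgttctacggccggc
Sdha, chr13:74350191-74350490, minus strand: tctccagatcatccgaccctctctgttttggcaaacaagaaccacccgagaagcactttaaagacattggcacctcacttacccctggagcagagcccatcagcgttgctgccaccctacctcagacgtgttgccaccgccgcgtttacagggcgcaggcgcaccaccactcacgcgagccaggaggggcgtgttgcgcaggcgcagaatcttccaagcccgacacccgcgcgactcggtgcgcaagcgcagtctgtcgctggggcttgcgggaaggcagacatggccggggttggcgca

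Across the pathway, 21 of the 44 genes had a summit in at least 1 list, which is 47.7%, against 46.5% of genes of like length and 44.2% of all protein-coding genes. Genes of like length were those outside the 44 whose length was between 4/5 and 5/4 of that of each gene in turn, 471 to 2757 of them per gene. By library the counts were 15 genes in replicate 1, 7 in replicate 3 and 6 in replicate 4. Like-length genes would give 11.2, 6.58 and 10.3, and the shares of all genes were 25.2%, 15.8% and 23.8%. The pathway therefore stood above its like-length value in replicate 1, near it in replicate 3 and below it in replicate 4. Summits in 2 or 3 lists were found at 4 of the 44 genes, against 6.40 from like-length genes and 16.2% of all genes. Summits in all 3 lists were found at 3 of the 44, Pfkfb3, Ogdh and Pcx, against 1.18 from like-length genes and 4.40% of all genes. With 3 libraries of 1 group and a gene set chosen with these data known, no test was run, and the counts stand as a description.

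**Figure D1:**
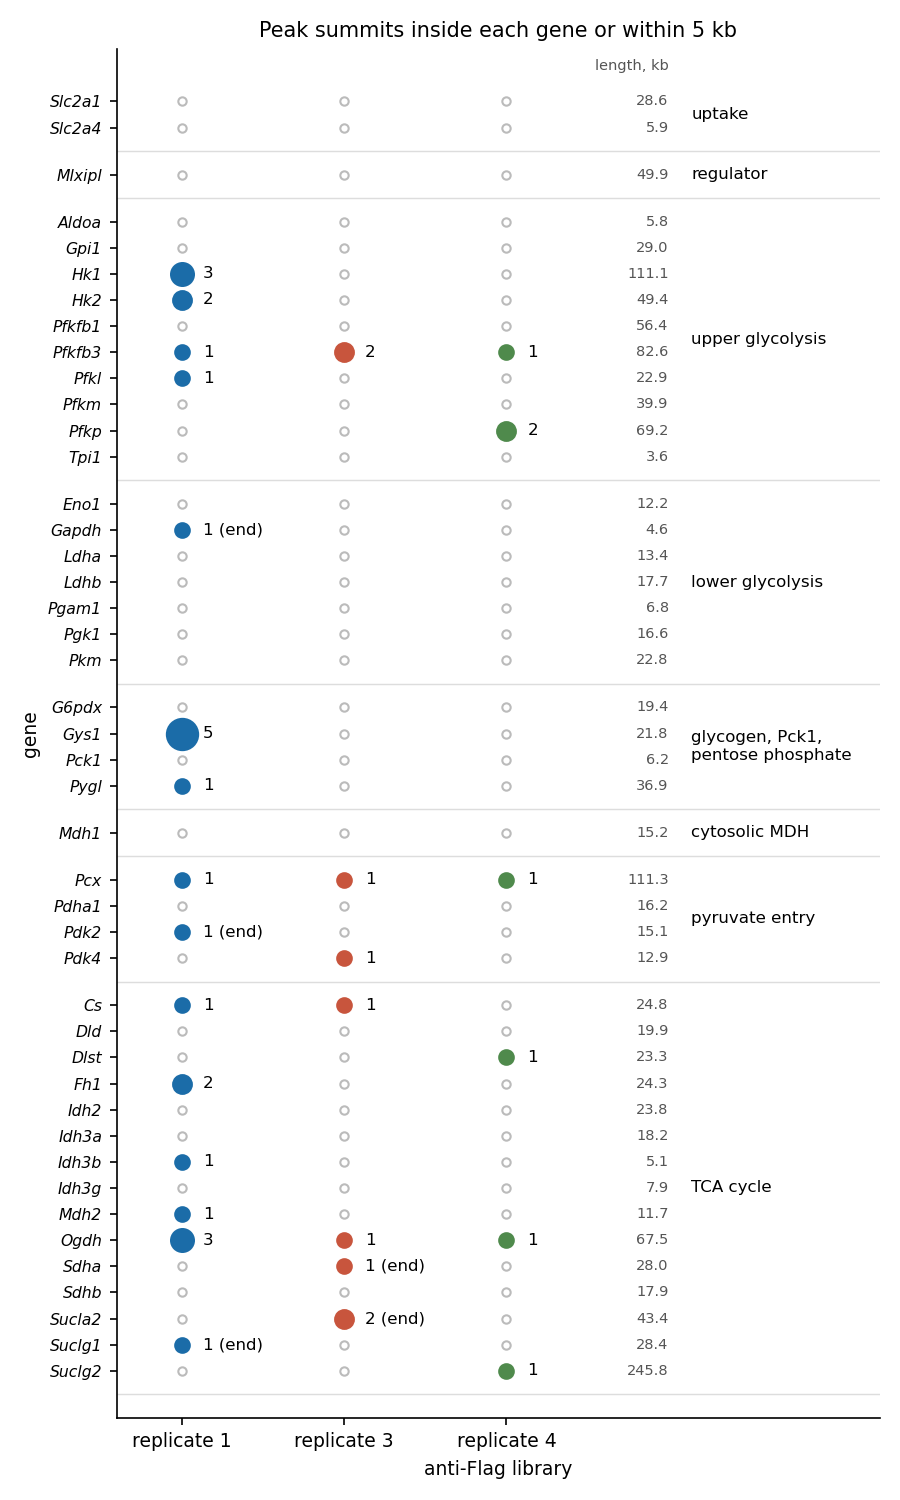
Number of peak summits inside each of the 44 genes or within 5 kb (filled circles, number beside them; open circles, 0) in the 3 anti-Flag libraries, with gene length in kb and the step of the pathway at the right. "End" marks genes with a summit within 1 kb of a gene end; Gys1 had 5 summits in replicate 1 and 0 elsewhere, and Pfkfb3, Ogdh and Pcx had summits in all 3 libraries.

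Mitochondrial steps carried summits at more of their genes than cytosolic steps. A summit in at least 1 list was found at 13 of 19 mitochondrial genes (68.4%) and at 8 of 22 cytosolic genes (36.4%). Genes of like length would give 9.04 for the mitochondrial genes and 10.04 for the cytosolic ones, so the mitochondrial count lay above its length and the cytosolic count below it. Among mitochondrial genes the libraries gave 8, 6 and 4 in replicates 1, 3 and 4, against like-length values of 5.01, 2.99 and 4.66. Among cytosolic genes they gave 7, 1 and 2, against 5.46, 3.15 and 4.95. The order of mitochondrial over cytosolic shares was seen in each of the 3 libraries, at 42.1% over 31.8%, 31.6% over 4.55% and 21.1% over 9.09%. The difference rests on a few genes per library and was not tested. Without replicate 1 the counts were 8 mitochondrial and 2 cytosolic genes, against like-length values of 6.44 and 7.01. With the gene body alone they were 9 and 8, against 7.27 and 7.90, so the cytosolic count then did not lie below its like-length value.

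**Figure D2:**
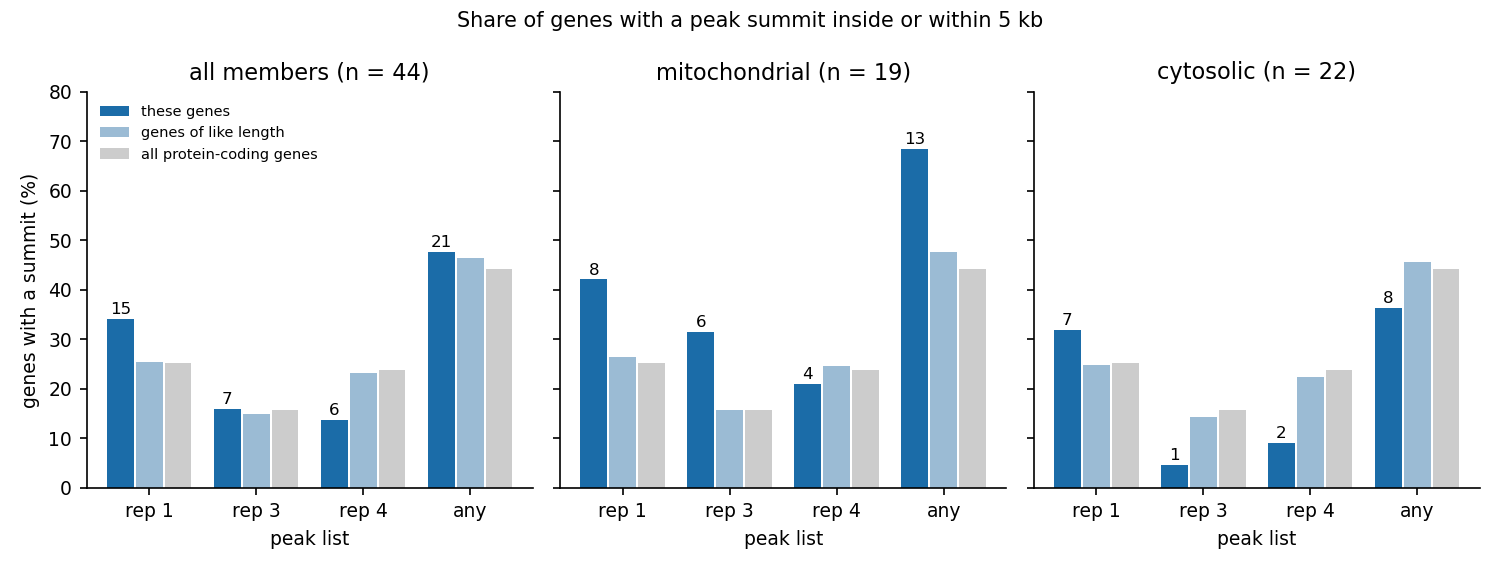
Percent of genes with a summit inside or within 5 kb, by peak list and in any list, for the 44 genes, for the 19 mitochondrial and for the 22 cytosolic genes (dark blue, number of genes above the bar), beside non-member genes of like length (light blue) and all protein-coding genes (grey). In any list the mitochondrial genes reached 68.4% against 47.6% at like length, and the cytosolic genes 36.4% against 45.7%.

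Counted as summits rather than genes, the contrast turned round in replicate 1. Windows of the mitochondrial genes span 0.935 Mb and held 11, 7 and 4 summits in replicates 1, 3 and 4, or 11.8, 7.48 and 4.28 per Mb. Windows of the cytosolic genes span 0.883 Mb and held 14, 2 and 3, or 15.8, 2.26 and 3.40 per Mb. The exact Poisson 95% intervals in replicate 3, the widest gap, were 3.01 to 15.4 per Mb for mitochondrial and 0.274 to 8.18 for cytosolic genes, and they overlap. These intervals cover counting error alone and treat summits as independent, while 5 of the 14 cytosolic summits of replicate 1 sat at Gys1. All protein-coding genes with the same windows had 6.29, 3.49 and 6.35 summits per Mb. These densities are pooled over genes of every length and were not matched to the pathway by gene length or chromosome.

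Gene length went with the presence of a summit. The 21 genes with a summit had a median length of 28.0 kb and the 23 genes without had 17.7 kb. Under 20 kb, 5 of 21 genes had a summit in any list, against 26.4% of other genes of that length. From 20 to 50 kb it was 10 of 16, against 50.6%, and at 50 kb or longer 6 of 7, against 79.9%. Within the class under 20 kb, 4 of 9 mitochondrial and 1 of 11 cytosolic genes had a summit. From 20 to 50 kb it was 6 of 7 and 4 of 7, and at 50 kb or longer 3 of 3 and 3 of 4. Of the short mitochondrial genes, Idh3b, Mdh2 and Pdk4 were counted only through summits outside the gene, 3.70, 3.50 and 3.99 kb away. The mitochondrial count of 4 thus rests on the 5 kb window.

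Every peak at these genes was weak. The 41 summits had folds, the enrichment over local background given by the authors' peak caller, of 2.53 to 4.77 in replicate 1, 2.41 to 4.10 in replicate 3 and 2.49 to 3.64 in replicate 4. Their medians of 3.28, 2.84 and 3.09 stood beside 3.20, 3.00 and 3.02 for the whole lists. A summit rested on 3 to 8 fragments, and 22 of the 41 on 4 or fewer. A count of 4 fragments has an exact Poisson 95% interval of 1.09 to 10.2, and a count of 8 has 3.45 to 15.8. The lowest q-values, in replicates 1, 3 and 4 in that order, were 0.0977, 0.459 and 0.644, so 0 of the 41 peaks had a q below 0.05. At this depth a single site at these genes was not distinguishable from background by the caller's own q.

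**Figure D3:**
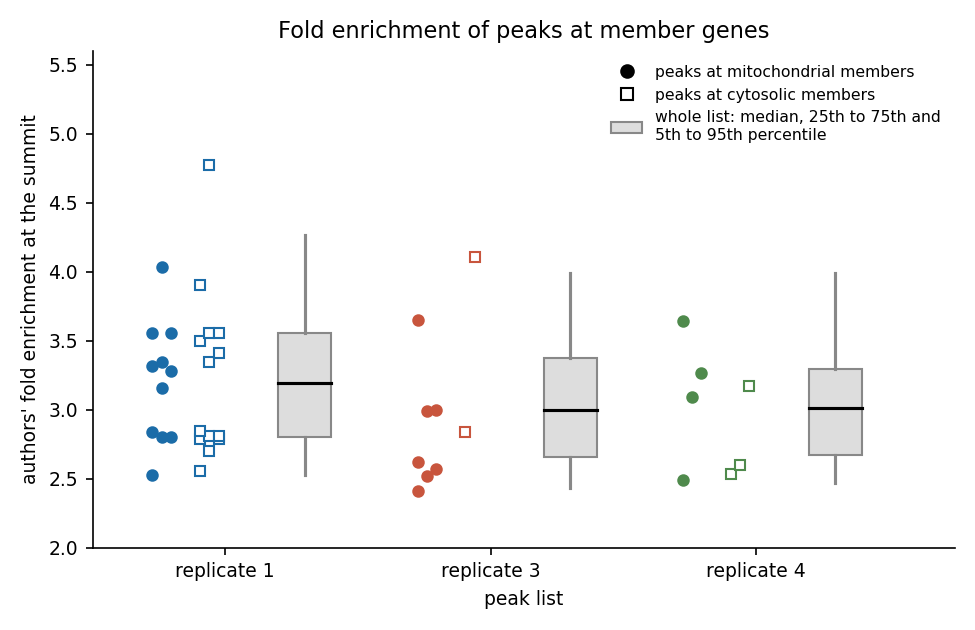
Fold enrichment at the summit, as the authors' peak caller gave it, for peaks at mitochondrial (filled circles) and cytosolic (open squares) genes in each of the 3 lists, beside the whole list (box, 25th to 75th percentile with the median; lines, 5th to 95th percentile). The peak of Pfkfb3 in replicate 1 is highest at 4.77.

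The transporter genes Slc2a1 and Slc2a4 and the regulator gene Mlxipl had no summit in any list. Like-length genes would give 0.764 for the 2 transporter genes and 0.610 for Mlxipl, and 44.2% of all protein-coding genes had one. With so few genes, their lack of summits is not set apart from those values. Slc2a1, the transporter of basal glucose uptake, lay 15.0 kb from the nearest summit of any list. Slc2a4, the insulin-responsive transporter GLUT4 of fat and muscle, lay 11.96 kb from it. Mlxipl encodes ChREBP, a transcription factor that turns on lipogenic genes when glucose is plentiful, and its nearest summit was 43.2 kb away.

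In upper glycolysis 5 of 10 genes had a summit, against 5.51 from like-length genes. Pfkfb3 encodes the enzyme that makes and breaks fructose 2,6-bisphosphate, the strongest activator of phosphofructokinase, and it had summits in all 3 libraries. The gene spans chr2:11471430-11554071, and 8.58% of genes of like length had a summit in all 3 lists. In replicate 1 its peak at chr2:11512754-11513065 had a fold of 4.77 on 6 fragments (q = 0.0977), at the 98.7th percentile of fold in that list. In replicate 3 a peak at chr2:11517293-11517543 had a fold of 4.10 on 8 fragments (q = 0.459, 96.3rd percentile), and another had 2.84 on 6 fragments (q = 0.950). In replicate 4 the peak at chr2:11485217-11485451 had a fold of 3.17 on 6 fragments (q = 0.875). The peaks of different libraries did not overlap. The nearest summits of different lists were those of replicates 3 and 4, 2.03 kb apart, and those of replicates 1 and 3 were 4.53 kb apart at the nearest.

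The hexokinases, which phosphorylate glucose on entry, had summits in replicate 1 alone. Hk1 had 3 with folds of 3.55, 2.81 and 3.50, each on 4 fragments, and Hk2 had 2 with folds of 2.79 and 2.56 on 4 and 3 fragments. Both are long genes, 111.1 and 49.4 kb, and like-length genes had a summit in that list in 50.1% and 32.9% of cases. Among phosphofructokinase genes, the committed step of glycolysis, Pfkl had 1 summit in replicate 1 (fold 2.84, 3 fragments) and Pfkp had 2 in replicate 4 (folds 2.60 and 2.53, 4 fragments each), the weaker of which lay inside the neighbouring gene Pitrm1. Pfkm, the muscle form, had 0, as did Pfkfb1, Gpi1, Aldoa and Tpi1. Gpi1, the glucose-6-phosphate isomerase gene, was the nearest to the 5 kb limit from outside, with a summit 5.43 kb away in replicate 1.

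In lower glycolysis and lactate metabolism 1 of 7 genes had a summit, against 2.47 from like-length genes. Gapdh, the gene of glyceraldehyde-3-phosphate dehydrogenase, had a peak in replicate 1 at chr6:125165609-125165853 with a fold of 3.55 on 4 fragments (q = 0.651). Its summit lay 52 bases into the transcribed side of the start whose window is printed above, and 0.746 kb inside the annotated gene. Replicates 3 and 4 had their nearest summits 24.1 and 101 kb from the gene. Gapdh has many processed pseudogene copies in the mouse genome, and reads of the gene and its copies cannot be told apart where they are identical. The treatment of reads with several matches was not given in the sources used here. Pgk1, Pgam1, Eno1, Pkm, Ldha and Ldhb, which carry the pathway on to pyruvate and lactate, had 0 summits in all 3 lists, with the nearest 9.29 kb (Ldha) to 50.2 kb (Ldhb) away.

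Of the 4 genes of glycogen, gluconeogenesis and pentose phosphate entry, 2 had a summit in any list, against 1.67 from like-length genes. Replicates 3 and 4 had 0 of the 4, where like-length genes would give 0.465 and 0.736. The glycogen genes Gys1 and Pygl were counted in replicate 1 alone. Gys1, the glycogen synthase of muscle and fat, had 5 summits there, the most of any of the 44 genes, and 0 in replicates 3 and 4, whose nearest summits were 67.9 and 167 kb away. The 5 summits lay within 9.61 kb on chromosome 7, between 45449999 and 45459607, in the far part of the gene and beyond it. Of these, 3 were inside Gys1, with folds of 2.79, 2.70 and 3.90 on 4, 6 and 6 fragments. The other 2 were inside Ftl1, the ferritin light chain gene next to it, with folds of 3.41 and 2.81 on 4 fragments each. Among 13251 genes of at most 25 kb, 5 had 5 or more summits in replicate 1, Gys1 and, chosen after their values were seen, Zfp36, Junb, Nr1d1 and Ifrd1. Pygl, a glycogen phosphorylase gene that releases glucose units from glycogen, had 1 summit in replicate 1 (fold 3.34, 5 fragments). Pck1, the cytosolic enzyme of glyceroneogenesis in fat, G6pdx, which opens the pentose phosphate pathway, and Mdh1, the cytosolic malate dehydrogenase, had 0.

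At pyruvate entry 3 of 4 genes had a summit, against 1.97 from like-length genes. Pcx encodes pyruvate carboxylase, which refills the TCA cycle with oxaloacetate, and it was counted in all 3 libraries at 3 separate places. Of genes of like length, 13.1% had a summit in all 3 lists. In replicate 1 a peak inside the gene, 8.98 kb from its start at chr19:4519300-4519580, had a fold of 4.04 on 5 fragments (q = 0.342). In replicate 3 the summit lay 1.31 kb beyond the far end, inside the neighbouring gene Rce1, with a fold of 3.65 on 8 fragments (q = 0.656). In replicate 4 it lay 1.80 kb before the start, with a fold of 2.49 on 4 fragments (q = 1). The nearest pair of these summits was 10.8 kb apart, and with the gene body alone Pcx was counted in replicate 1 but not in the others. Pdk2 and Pdk4, of the kinases that switch off pyruvate dehydrogenase, had 1 summit each, Pdk2 in replicate 1 at chr11:95040542-95040786 (fold 3.32, 4 fragments, q = 0.651) and Pdk4, which is induced by fasting, in replicate 3 (fold 2.52, 5 fragments). The Pdk2 summit was 151 bases inside the start whose window is printed above, and the Pdk4 summit was 3.99 kb beyond the far end of the gene, just inside the 5 kb limit. Pdha1, which encodes a subunit of the dehydrogenase itself, had 0.

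TCA cycle genes had summits at 10 of 15, against 7.07 from like-length genes. Ogdh, the first component of the 2-oxoglutarate dehydrogenase complex, spans chr11:6291597-6359094 and was the gene of this group with summits in all 3 libraries. In replicate 1 it had 3 peaks with folds of 3.55, 3.16 and 2.80 on 4, 4 and 3 fragments. Replicate 3 had 1 with a fold of 3.00 on 7 fragments, and replicate 4 had 1 at chr11:6342299-6342533 with a fold of 3.26 on 5 fragments. The replicate 4 summit lay 0.94 kb from a replicate 1 summit at chr11:6343233-6343485, the nearest pair between libraries at any of the 44 genes, and the intervals did not overlap. Like-length genes had a summit in all 3 lists in 4.81% of cases.

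Cs, citrate synthase, which opens the cycle, had 1 summit in replicate 1 (fold 3.28, 4 fragments) and 1 in replicate 3 (fold 2.41, 5 fragments), 19.1 kb apart. The succinyl-CoA ligase genes each had summits in a single library. Sucla2, the ADP-forming subunit, had 2 in replicate 3 with folds of 2.57 and 2.62 on 8 and 6 fragments, the first 0.432 kb inside its start at chr14:73552920-73553293. Suclg1, the subunit shared by both forms of the enzyme, had 1 in replicate 1, 0.361 kb beyond its far end (fold 2.84, 3 fragments), and Suclg2, the GDP-forming subunit, had 1 in replicate 4 (fold 3.64, 6 fragments). Suclg2 is the longest of the 44 at 246 kb, and 91.9% of genes of like length had a summit in some list.

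Sdha, the flavoprotein of succinate dehydrogenase, had 1 summit in replicate 3, 0.665 kb inside its start at chr13:74349423-74349673 (fold 2.99, 7 fragments, q = 0.950), while Sdhb, the iron-sulfur subunit, had 0. Fh1, fumarase, had 2 in replicate 1, 1 inside the gene with a fold of 3.55 on 4 fragments and 1 lying 4.03 kb beyond it with 2.53 on 3 fragments. Mdh2, the mitochondrial malate dehydrogenase, had 1 in replicate 1 that lay 3.50 kb before its start, inside Styxl1 (fold 3.34, 5 fragments). Of the NAD-dependent isocitrate dehydrogenase genes, Idh3b had 1 in replicate 1, 3.70 kb beyond its end and inside Nop56 (fold 2.80, 3 fragments), and Idh3a and Idh3g had 0. Dlst, the second component of the 2-oxoglutarate dehydrogenase complex, had 1 in replicate 4 (fold 3.09, 5 fragments). Dld, the component shared with pyruvate dehydrogenase, and Idh2, the NADP-dependent enzyme, had 0.

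**Figure D4:**
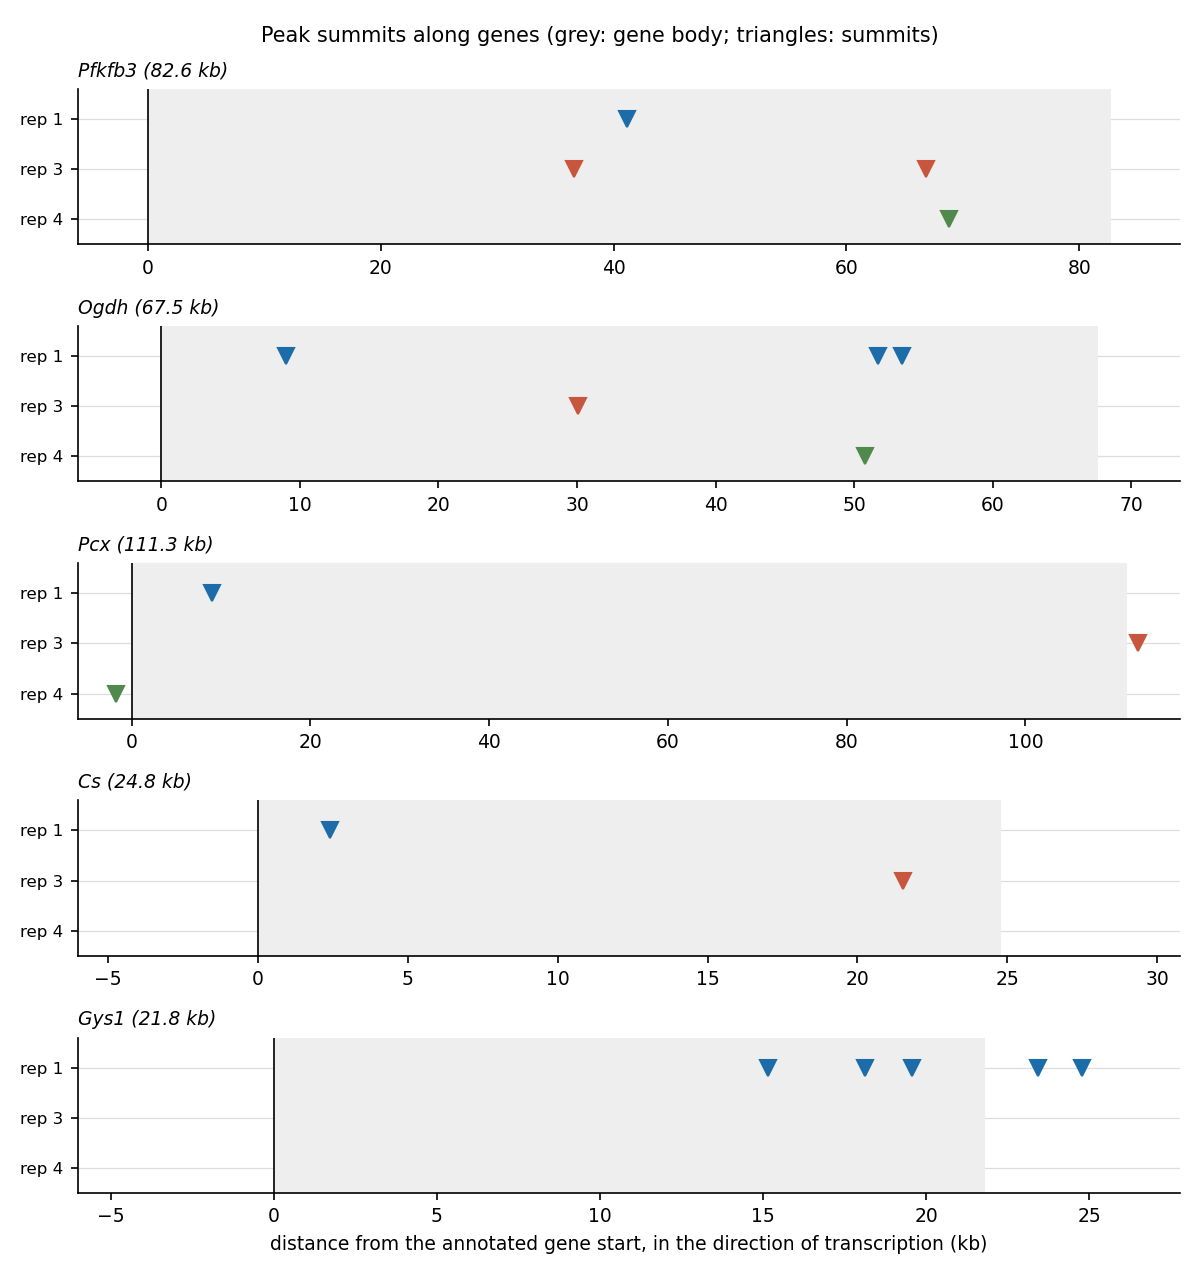
Summits along the 4 genes counted in 2 or 3 libraries and along Gys1, as distance in kb from the annotated start in the direction of transcription (grey, gene body; triangles, summits; 1 line per library). Summits of different libraries never coincide, the nearest pair being 0.94 kb apart at Ogdh, and the 5 summits of Gys1 lie within 9.61 kb in replicate 1.

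No site was shared between libraries. At the 4 genes with summits in 2 or 3 lists there were 16 pairs of summits from different lists. Of these, 0 came from peaks that overlapped by at least 1 bp. Overlap between the lists was not counted over all genes, so its absence here cannot be called particular to these genes. Of the 41 summits, 31 lay inside the gene, 2 before its start and 8 beyond its far end, and 6 of the 10 outside lay within another protein-coding gene.

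At gene ends 3, 2 and 0 of the 44 genes had a summit in replicates 1, 3 and 4, against 1.65, 0.614 and 0.948 from like-length genes and 3.49%, 1.33% and 1.97% of all genes. Over the lists together it was 5 of 44 (11.4%), against 3.13 from like-length genes and 6.60% of all genes. These were 4 of the 19 mitochondrial genes and 1 of the 22 cytosolic genes, against 1.37 and 1.55 from like-length genes. The split rests on few genes and was not tested. Without replicate 1 the count among the 44 was 2, and without replicate 3 it was 3. No gene end had a summit in 2 lists, against 0.0874 from like-length genes and 0.192% of all genes.

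Genes on the X chromosome stood apart from the rest. Of the 44 genes, 5 are X-linked, Pdha1 and Idh3g of the mitochondrial steps and Pgk1, G6pdx and Pfkfb1 of the cytosolic steps, and 0 of these 5 had a summit. The nearest summit in any list was 15.5 kb from Pgk1, and 96.2 to 197 kb from the other 4. In replicate 3 the nearest summit to G6pdx was 40479 kb away. Among all 966 X-linked protein-coding genes, 3.31%, 0.311% and 2.48% had a summit in replicates 1, 3 and 4, against 26.5%, 16.7% and 25.1% of 20665 autosomal genes. The X chromosome carried 70 of 11871, 9 of 6531 and 57 of 13496 peaks, or 0.590%, 0.138% and 0.422%, while it holds 4.41% of the genes. The cause of the difference was not tested.

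Setting the X-linked genes aside, 21 of 39 autosomal genes of the pathway had a summit in any list (53.8%), against 46.5% of autosomal genes. By library it was 15, 7 and 6 of 39, or 38.5%, 17.9% and 15.4%. With X-linked genes left out on both sides, a choice made after seeing the data, the mitochondrial count was 13 of 17, against 8.65 from like-length genes, and the cytosolic count was 8 of 19, against 8.91.

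**Figure D5:**
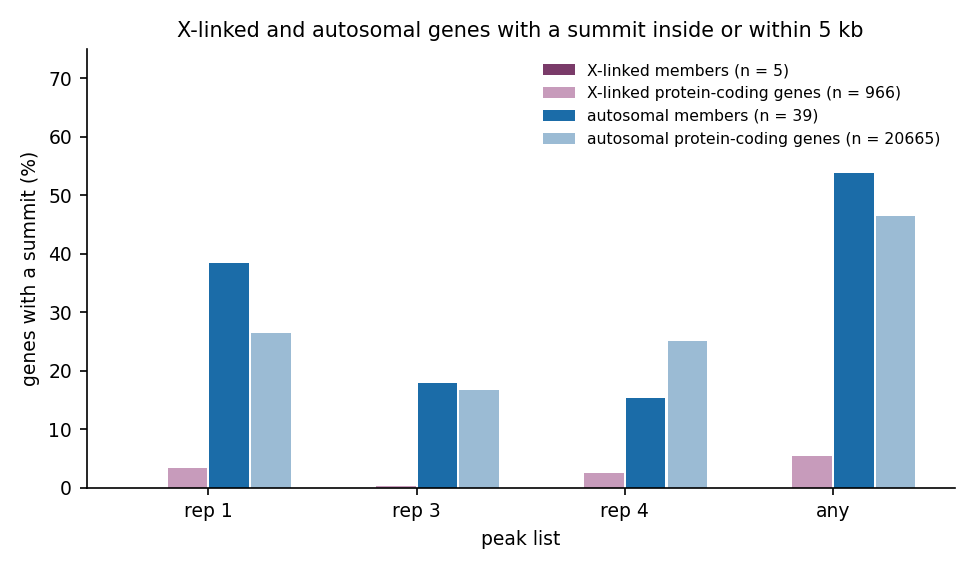
Percent of genes with a summit inside or within 5 kb, by peak list and in any list, for the 5 X-linked genes of the pathway (0 in every list), all 966 X-linked protein-coding genes, the 39 autosomal genes of the pathway and all 20665 autosomal protein-coding genes. X-linked genes reach 5.49% in any list and autosomal genes 46.5%.

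Promoters of these genes were rich in GC, with or without a summit. RefSeq windows were found for 42 of the 44 genes, 64 windows in all, and not for Slc2a4 and Idh3a. The median GC content per gene was 61.2% for the 21 genes with a summit and 60.3% for the 21 without, against 56.3% for 17492 protein-coding genes. GC boxes (GGGCGG, both strands) were in 56.3% of the 64 windows, against 46.2% of the 21263 windows of protein-coding genes. E-boxes (CACGTG) were in 14.1% against 7.84%, AGGTCA, a core sequence of nuclear receptor sites, in 23.4% against 14.7%, TGACGTCA, the cyclic AMP response element, in 7.81% against 2.23%, and TGANTCA, the AP-1 motif, in 1.56% against 6.99%. Windows of different starts of a gene can overlap, as at Ogdh. Counted by gene, AGGTCA was in 5 of the 21 with a summit and 9 of the 21 without. In the same order, GC boxes were in 14 and 16, E-boxes in 4 and 3, TGACGTCA in 2 and 1, and TGANTCA in 0 and 1. Counted by gene over 17492 protein-coding genes, AGGTCA was in 16.7%, GC boxes in 49.2% and E-boxes in 8.91%. TGACGTCA was in 2.54% of them and TGANTCA in 8.12%. The matches describe these letters and were not tested. The Sucla2 window printed above held 1 AGGTCA and 1 GC box, which appears on the printed strand as CCGCCC.

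Other genes of the same pathway gave counts near those of their length. Of 85 further genes, among them pyruvate carriers, further isoforms and pentose phosphate enzymes, 26, 16 and 18 had a summit in replicates 1, 3 and 4, against 22.6, 13.9 and 21.3 from like-length genes. In any list it was 44 of 85 (51.8%), against 40.9. The 25 mitochondrial genes among them had 13 (52.0%), against 11.2 from like-length genes. The 60 cytosolic or membrane genes had 31 (51.7%), against 29.7. Both counts lay somewhat above their like-length values. The higher mitochondrial share of the 44 genes was not seen among the raw shares of these.

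Gene ends with a summit among the 85 had it in 1 list each. In replicates 1 and 3 they were 4 and 2 of the 85 genes (4.71% and 2.35%), against 3.49% and 1.33% of all protein-coding genes. Mpc1, a subunit of the mitochondrial pyruvate carrier, had a fold of 3.34 on 5 fragments in replicate 1, and Dhtkd1, a gene related to Ogdh, had 2.69 on 3 fragments in the same list. Both peaks overlapped a promoter window of their gene. Idh1, the cytosolic isocitrate dehydrogenase, had 3.34 on 5 fragments, and Galm, an aldose epimerase gene, 2.84 on 3 fragments in replicate 1. Pfkfb2 and Pfkfb4, relatives of Pfkfb3, had 3.02 and 3.48 on 6 and 7 fragments in replicate 3. The q-values of these 6 peaks ran from 0.651 to 0.992.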

How the data were processed

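Peaks of 3 anti-Flag ChIP-seq libraries were analysed. The build was mm10, and the submitters' processing notes name MACS2 2.1.0, BWA 0.7.12 and fastp 0.19.11. The labels' protocols mention both single-end and paired-end sequencing. The deposited lists are 1 per library, not pooled, and any use of the inputs as controls was not given in the sources used here. Each peak has the authors' fold enrichment ratio, their −log10 p and −log10 q, and an integer score, which in the deposited lists is 10 times the −log10 p cut to a whole number. These describe peaks within their own list.

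Several summits of 1 interval were reduced to that of lowest p. Fragments at a summit were solved from fold, (fragments + 1) / (background + 1), and the Poisson p, and matched within 0.001 on the log10 scale at all 41 peaks. Intervals cover counting error alone. Gene positions, strand and promoter windows came from RefSeq tables of GRCm38.p6, and exons and introns were not told apart. Like-length values average genes between 4/5 and 5/4 of each length. Procedures (Python 3.11.15, pandas 2.3.3, SciPy 1.17.1) were tested on simulated data. The genes and lists were chosen with earlier results of these data known. All genes of the pathway with a summit are named, and of the 85 further genes those with a summit at a gene end, except for a result not reported here. Alternatives were the window, the peak threshold, equal list sizes, peak intervals, every summit, length tolerance, overlap rules and leaving out each library.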

Additional observations from a re-analysis of the deposited data

How the results depend on the processing

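The counts of genes were recomputed under the alternatives that apply to each and called stable within 1.5 times. Under the gene body alone, a 10 kb window, peak intervals and every summit, the counts by library and by compartment stayed within it. So did those in 2 or 3 lists and in all 3 lists, and the count at gene ends under peak intervals and every summit. This limit was applied to each count on its own. With the gene body alone the mitochondrial count was 9 instead of 13 and the cytosolic count stayed at 8, so their contrast narrowed. At a q below 0.05, 0 genes remained in replicates 1, 3 and 4, in 2 or 3 lists, in all 3 lists, at gene ends, and among mitochondrial and cytosolic genes, since 0 of the 41 peaks pass it. At a p of at most 0.001 replicate 3 had 4 genes instead of 7, with 4229 peaks left. With 6531 peaks in each list, those of lowest p, the mitochondrial count was 11 and the cytosolic count 5, against like-length values of 6.63 and 7.25. An end window of 3 kb gave 8 genes instead of 5. Leaving out each library in turn gave 2 to 5 genes at gene ends, 8 to 11 mitochondrial genes and 2 to 8 cytosolic genes, the lowest in each case without replicate 1. The causes were not tested. Length tolerances of 1.1 and 1.5 times moved the like-length values by little, to 11.2 and 11.2 in replicate 1. Shared sites stayed at 0 with 50% reciprocal overlap and with summits within 100 bp. Each of the 41 peaks rests on 3 to 8 fragments, which limits the precision of its fold. No paired analysis was possible because the input libraries that share replicate numbers with the anti-Flag libraries have no values in the files used here.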

Other observations

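Among genes of at most 25 kb with 5 or more summits in replicate 1, the early-response genes Junb and Zfp36 had 6 and 5 there, 1 each in replicate 3 and 0 in replicate 4. Nr1d1, a clock repressor gene, had 5, 0 and 0 in replicates 1, 3 and 4, and Ifrd1 had 5, 2 and 1. They were picked with their values in view, without a test.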
